A study of Mus musculus with 6 samples.

Results

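Markers of injured kidney tubule were followed in adult mouse kidney after inducible deletion of Pax2 and Pax8: Lcn2, Havcr1, Clu, Krt8, Krt18, Krt20, Vcam1, Sox9, Cd44 and Lgals3. They are a given list of 10 of the 22180 genes measured through a transcript cluster (the group of probes that reports 1 transcript) with a single gene symbol, each read at its brightest such cluster, and all 10 were found. The samples labelled Pax28 dKO came from mice with floxed Pax2 and Pax8 alleles and Rosa26CreER, a Cre recombinase that tamoxifen activates. The controls were Cre negative. Both groups were on chow from week 3. Both groups received tamoxifen at 50 mg/kg in corn oil, once a day for 3 days when 8 weeks old and again for 3 days when 10 weeks old. Tissue was harvested 14 days after the final dose, at 12 weeks. Each group has 3 arrays, 2 from females and 1 from a male: knockouts 1 (male), 3 and 5, and controls 2, 4 (male) and 6. Rosa26 is active in most cell types, so the deletion was not aimed at the tubule alone. Because the controls lack Cre, an effect of activated Cre and an effect of losing Pax2 and Pax8 cannot be told apart here.

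The injured tubule sheds its transport program and switches on a stereotyped set of genes. Havcr1 (KIM-1), a phosphatidylserine receptor that lets epithelial cells engulf debris, is the textbook marker of the damaged proximal tubule. Lcn2 (NGAL), a secreted siderophore-binding lipocalin, is made mainly by the thick ascending limb and collecting duct after injury, and Clu encodes the secreted chaperone clusterin, induced in distal and dedifferentiated tubules. Krt8, Krt18 and Krt20 are keratins of simple epithelia, Sox9 is a transcription factor of regenerating tubule cells, and Vcam1, Cd44 and Lgals3 encode adhesion molecules and a galectin that both epithelium and immune or stromal cells can make.

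The array values are log2 expression values, so a difference of 1 is a 2-fold change. The median of all clusters lay between 3.81 and 3.87 on the 6 arrays. The targeted genes were not lower on the arrays labelled knockout: Pax8 was 2.58-fold higher (log2 difference 1.36 ± 0.12, SE; limma adjusted p = 0.00369) while Pax2 showed a difference of 0.27 (adjusted p = 0.189). The labels do not name the deleted exons, so it is not known whether the probes lie within them. The rise of Pax8 is left unresolved, and these 2 genes do not settle whether the labels are right. If the labels of the groups were exchanged, every direction below would turn. Each direction is that of the arrays labelled knockout. Kidney tissue was plain in both groups, with Lrp2 of the proximal tubule between 10.69 and 11.41 and Umod of the thick ascending limb between 11.41 and 11.88. The labels do not say that each array is a separate animal, so each p-value reflects only how these samples vary. In whole kidney, more cells of a type and more RNA per cell cannot be told apart.

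Of the 10 injury markers, 9 rose and 0 fell on the arrays labelled knockout. The 1 that did not pass was Havcr1. The markers and the lists below were chosen with earlier results of these data known, so a high share among them is not independent evidence. Across all genes 7.2% passed, 4.12% as higher and 3.08% as lower. Each count of called genes in the lists below is to be read against these shares. The median log2 difference of the 10 was 1.0, against -0.0062 over all genes, and 5 of the 9 rises were at least 2-fold, which 0.861% of all genes reached in that direction. The 9 rising markers had knockout values wholly above the control values; over all genes, 22.5% had non-overlapping groups and 11.7% had them in that direction. Lcn2, Clu and Sox9 kept their calls in all 15 alternative analyses, among them the 6 with 1 array left out. Without control 2, however, Krt8, Krt18, Krt20, Vcam1 and Cd44 no longer passed, and 4 of the 10 did. Without sex in the model, 4 also passed: Krt18, Krt20, Vcam1, Cd44 and Lgals3 lost their calls, at adjusted p of 0.053, 0.0789, 0.0724, 0.0563 and 0.103. With every cluster on the array tested, 4 passed, and Krt8, Krt18, Krt20, Vcam1 and Cd44 lost theirs, at 0.053 to 0.0828. The exact two-sided permutation p was 0.1 for each of the 9, the smallest that 3 against 3 arrays can give.

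**Figure D1:**
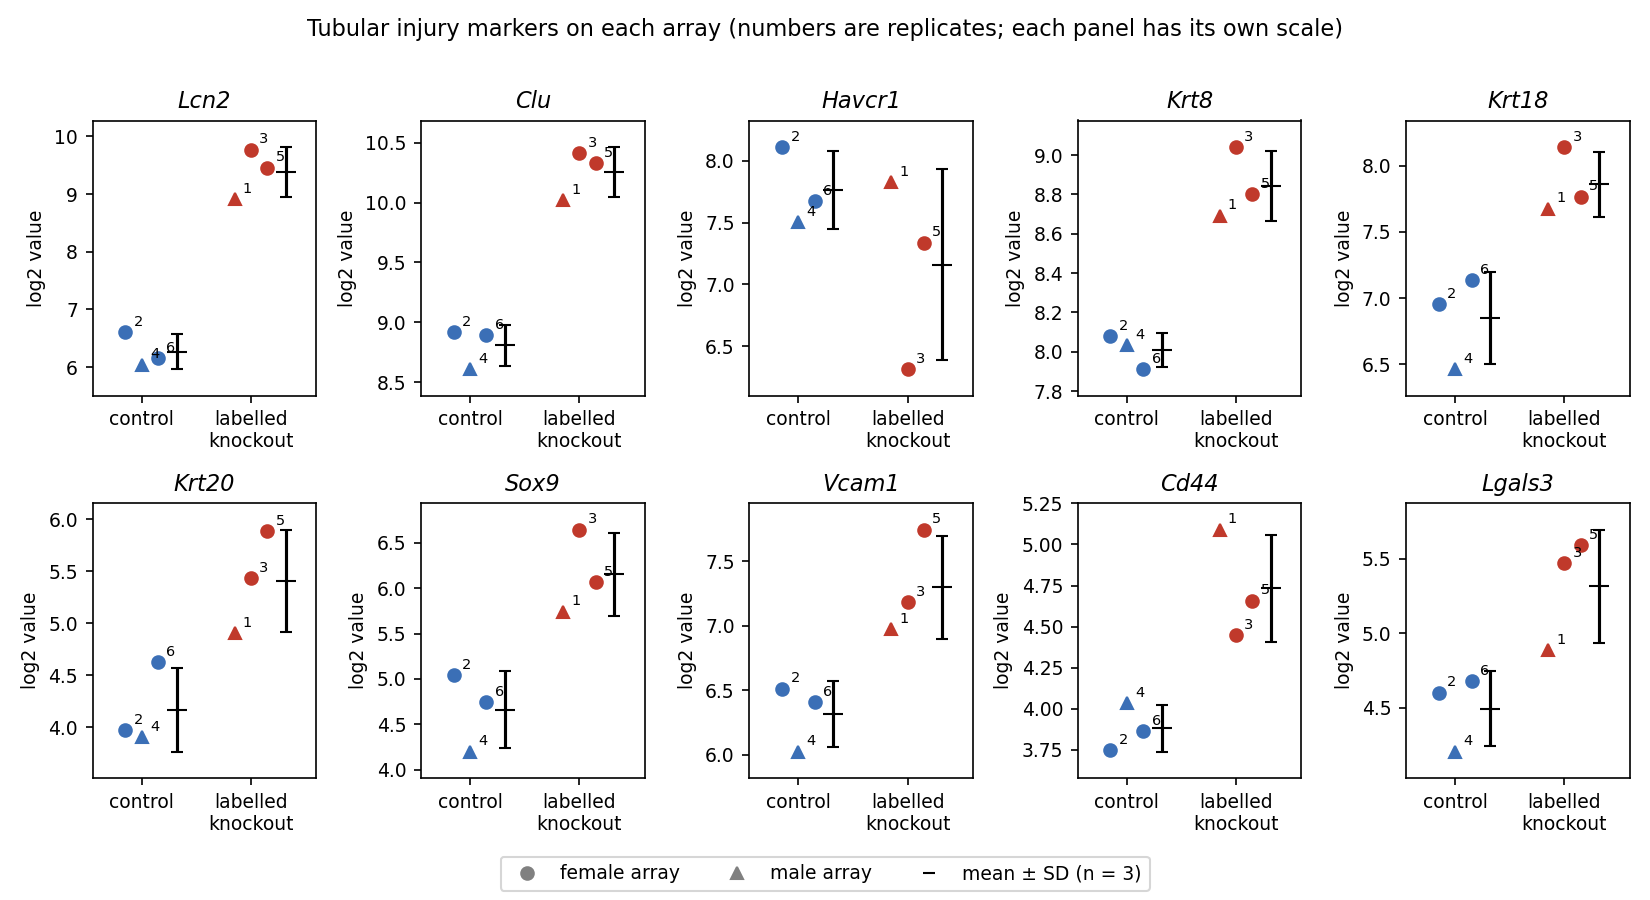
Log2 value of each injury marker on each array, with controls in blue, arrays labelled knockout in red, circles for females, triangles for males and bars for the mean ± SD of 3 arrays. In 9 panels the red points lie above all blue points; in the Havcr1 panel knockout 1 at 7.83 lies among the controls, which run from 7.51 to 8.11.

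Both distal markers rose, and Lcn2 rose most of the 10. Lcn2 (Entrez gene 16819) stood at 8.91, 9.77 and 9.46 log2 on knockouts 1, 3 and 5, and at 6.61, 6.04 and 6.15 on controls 2, 4 and 6. The lowest knockout lay 2.30 above the highest control, a gap far wider than the spread within either group. Its log2 difference was 3.11 ± 0.16 (SE), an 8.63-fold rise with a limma adjusted p of 0.00112, and it ranked 3 of all 22180 differences. Clu (Entrez gene 12759) stood at 10.02, 10.41 and 10.33 on the same knockouts and at 8.92, 8.61 and 8.90 on the controls. All 3 knockouts again lay above all 3 controls, here by at least 1.10. The log2 difference of Clu was 1.45 ± 0.08 (SE), 2.73-fold, with an adjusted p of 0.00115, and it had the smallest error of the 10 markers.

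Havcr1 did not rise with them. Havcr1 (Entrez gene 171283) stood at 7.83, 6.32 and 7.34 on knockouts 1, 3 and 5, and at 8.11, 7.51 and 7.67 on controls 2, 4 and 6. Knockout 3 was the lowest array, knockout 1 was the second highest of all 6 arrays, and the groups overlapped. The log2 difference was -0.60 ± 0.36 (SE; adjusted p = 0.40), with a 95% confidence interval from -1.46 to 0.26. That interval includes no change and excludes a rise of the size seen in any of the other 9 markers, the smallest of which was 0.82. Knockout 3 carries much of the estimate: without it the difference was -0.18 (adjusted p = 0.759), and without control 2 it was -0.35 (adjusted p = 0.705). The knockout SD of Havcr1, 0.77, was the widest of the 10.

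Set against each other within each array, Lcn2 and Clu separated from Havcr1 on every array labelled knockout. The contrast was computed against Havcr1 alone and does not stand for proximal injury genes in general. Sox9, Vcam1 and Krt20, which injured proximal cells also make, rose. With them, 6 of the 13 genes of the proximal injury list rose, 0 fell and 7 did not pass. Those that did not pass include Havcr1, Itgb8 (-0.50) and Cdh6 (0.46). Of its 9 genes outside the 10 markers 3 rose, beside 4.12% of all genes. The Lcn2 value minus the Havcr1 value was -1.5, -1.46 and -1.52 on the controls, a span smaller than 0.1, and 1.08, 3.45 and 2.12 on knockouts 1, 3 and 5. This is not a comparison of the levels of the genes, whose probes differ, but of how unequally they changed. The change in that difference was 3.71 log2 (exact two-sided permutation p = 0.1, the smallest possible). For Clu minus Havcr1 the controls stood at 0.81, 1.10 and 1.22 and the knockouts at 2.20, 4.10 and 2.99, a change of 2.05 (exact two-sided permutation p = 0.1). In both cases knockout 3 had the widest separation, with the highest Lcn2 and Clu and the lowest Havcr1 of all arrays. Without knockout 3 the changes were 3.09 and 1.55, in the same direction.

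**Figure D2:**
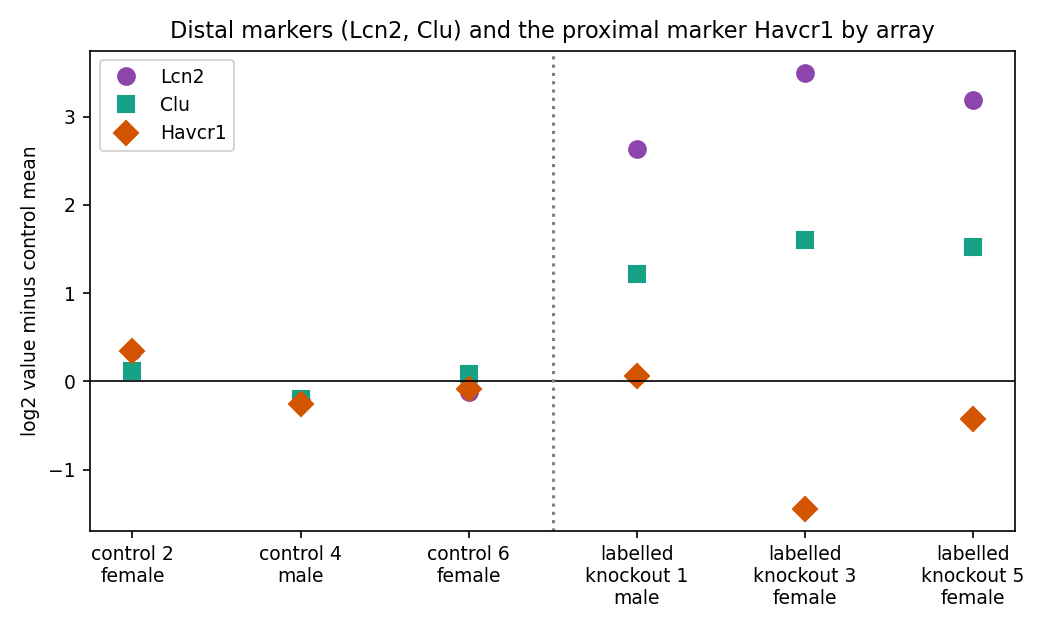
Deviation of Lcn2 (purple circles), Clu (green squares) and Havcr1 (orange diamonds) from their control means, in log2 units, on each of the 6 arrays. On the arrays labelled knockout Lcn2 lies between 2.64 and 3.50 and Clu between 1.21 and 1.61 above the control mean, while Havcr1 lies between 1.45 below and 0.06 above it.

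The RefSeq windows (build GRCm38.p6) just upstream of the annotated starts show the DNA next to the strongest riser and to the marker that did not pass. Such windows were found for 7 of the 10 markers; Clu, Vcam1 and Sox9 had none in the table. The 250 bases before the start of Lcn2 lie at chr2:32387740-32387989 (minus strand), and those before the most upstream of the 3 listed starts of Havcr1 at chr11:46739973-46740222 (plus strand). Both are written 5′ to 3′ as the gene is read, and no searched motif occurs in either, so no letters are capitals.
Lcn2: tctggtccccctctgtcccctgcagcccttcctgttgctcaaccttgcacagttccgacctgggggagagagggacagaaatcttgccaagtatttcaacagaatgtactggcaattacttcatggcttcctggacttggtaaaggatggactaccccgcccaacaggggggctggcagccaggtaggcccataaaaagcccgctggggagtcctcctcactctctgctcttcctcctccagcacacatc
Havcr1: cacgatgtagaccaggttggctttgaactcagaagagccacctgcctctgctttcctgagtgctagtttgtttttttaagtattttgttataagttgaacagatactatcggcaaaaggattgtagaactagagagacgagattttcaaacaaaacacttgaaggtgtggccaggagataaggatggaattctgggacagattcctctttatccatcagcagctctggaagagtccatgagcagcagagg
The letters searched on both strands were GTCACG (a core of Pax2 and Pax8 sites), TGACTCA (AP-1), a narrow form of the NF-kappaB site and TTCNNNGAA (STAT). Other forms of the NF-kappaB site were not searched. None of the 9 windows of the 7 markers held any of the 4, which 6.93%, 4.46%, 1.41% and 7.02% of all 32851 windows of that length hold. This says only that these letters are not in these short windows.

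All 3 keratins of the list rose. Keratin filaments are built from pairs of a type II chain, such as Krt8, and a type I chain, such as Krt18 or Krt20. Krt8 (Entrez gene 16691) stood at 8.69, 9.04 and 8.80 on knockouts 1, 3 and 5 and at 8.08, 8.03 and 7.91 on controls 2, 4 and 6. The controls of Krt8 were the tightest of the 10 markers (SD 0.09), and no knockout came within 0.61 of them. This was a log2 difference of 0.84 ± 0.11 (SE; adjusted p = 0.0106). Krt18 (Entrez gene 16668) stood at 7.68, 8.14 and 7.77 against 6.95, 6.46 and 7.14, with control 4 the lowest array and knockout 3 the highest. Its log2 difference was 1.01 ± 0.13 (SE), 2.01-fold, with an adjusted p of 0.0104. A dimmer second cluster of Krt18 read 4.93, 5.18 and 4.91 on the knockouts and 4.27, 3.86 and 5.18 on the controls; there the groups overlapped, and the mean of both clusters differed by 0.79 with an adjusted p of 0.0537. The call of Krt8 was also lost without control 6 (adjusted p = 0.05).

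Krt20 (Entrez gene 66809), a keratin of intestinal and urothelial surface cells that injured tubules switch on, stood at 4.91, 5.43 and 5.89 on knockouts 1, 3 and 5 and at 3.97, 3.90 and 4.63 on the controls. Control 6 came closest to the knockouts, with 0.28 between it and knockout 1. Krt20 thus had a log2 difference of 1.24 ± 0.20 (SE), 2.37-fold, with an adjusted p of 0.0199, which became 0.0506 without control 2 and 0.0631 without knockout 5. Of the other listed keratins and filament-linking proteins measured, 4 of 15 rose, 1 fell and 10 did not pass, with a median of 0.14. Over all genes 4.12% rose and 3.08% fell. Krt19, a small type I keratin of ducts, rose by 1.40 ± 0.15 (SE) and kept its call whichever array was left out. Krt7 (0.54), the intermediate filament vimentin Vim (0.59) and the cytolinker Plec (0.44) also rose. With 1 array left out in turn, Krt7 kept its call in 2 of 6 analyses, Vim in 1 and Plec in 0. The fall was Krt80 (-0.69 ± 0.12, SE; adjusted p = 0.0244), a widely expressed type II keratin, named after its value was seen. The stratified-epithelium keratins Krt4, Krt13, Krt14, Krt15 and Krt17 did not pass, at differences between -0.16 and 0.19.

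Krt8 and Krt18 lie close together on chromosome 15 and are read in opposite directions. The 250-base windows before their starts lie at chr15:102004343-102004592 (minus strand) and chr15:102027966-102028215 (plus strand), and that of Krt20 at chr11:99438154-99438403 (minus strand), all in GRCm38.p6. They are shown because the keratins moved together. Capitals mark TATAAA, the core promoter box, which was added to the search after the windows were seen. It occurs once, starting 29 bases before the start of Krt20, and in none of the windows of the other 6 markers, and 12.4% of all windows hold it on either strand.
Krt8: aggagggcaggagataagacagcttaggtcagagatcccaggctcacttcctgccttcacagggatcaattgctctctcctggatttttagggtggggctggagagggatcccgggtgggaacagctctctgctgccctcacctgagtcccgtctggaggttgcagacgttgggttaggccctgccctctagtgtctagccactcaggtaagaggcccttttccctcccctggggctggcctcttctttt
Krt18: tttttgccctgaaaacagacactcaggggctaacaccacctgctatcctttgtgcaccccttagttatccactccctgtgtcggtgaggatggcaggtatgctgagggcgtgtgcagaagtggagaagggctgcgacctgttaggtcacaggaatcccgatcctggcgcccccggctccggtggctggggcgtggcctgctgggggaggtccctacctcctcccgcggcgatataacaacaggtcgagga
Krt20: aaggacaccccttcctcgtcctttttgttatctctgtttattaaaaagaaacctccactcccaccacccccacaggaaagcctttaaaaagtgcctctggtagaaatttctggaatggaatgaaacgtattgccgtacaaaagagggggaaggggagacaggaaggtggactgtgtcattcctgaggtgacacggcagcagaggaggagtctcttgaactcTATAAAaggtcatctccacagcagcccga

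Sox9, the regeneration factor, had the second largest rise. Sox9 (Entrez gene 20682) stood at 5.74, 6.65 and 6.07 on knockouts 1, 3 and 5 and at 5.04, 4.2 and 4.74 on controls 2, 4 and 6. The groups were 0.70 apart at their nearest arrays, and the male array was the lowest in each group. The log2 difference was 1.49 ± 0.16 (SE), 2.81-fold, with an adjusted p of 0.0066. Of the other listed Sox factors, 1 of 11 rose and 0 fell (median -0.03), while 4.12% of all genes rose. The riser was Sox4, a progenitor-associated SoxC factor, at 0.89 ± 0.11 (SE; adjusted p = 0.0089), kept with any single array left out. Its relatives Sox11 and Sox12 differed by -0.03 and -0.49 and did not pass, nor did Sox8 at -0.39.

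The adhesion molecule Vcam1 (Entrez gene 22329), a ligand of leukocyte integrins that also marks proximal tubule cells that fail to repair, stood at 6.97, 7.18 and 7.74 on knockouts 1, 3 and 5 and at 6.51, 6.03 and 6.41 on the controls. Knockout 5 was the highest array and the nearest arrays of the groups lay 0.46 apart. The log2 difference was 0.98 ± 0.15 (SE; adjusted p = 0.0159); without control 2 or control 6 the adjusted p was 0.0652 or 0.0738. Of 10 other adhesion molecules and Vcam1 partners, 2 rose and none fell (median 0.22), while 4.12% of all genes rose. The risers were Icam1, a second integrin ligand, by 0.81 ± 0.15, and Itga4, a chain of the integrin that binds Vcam1, by 0.38 ± 0.08. Icam1 lost its call without control 2 or control 6 and Itga4 with any single array left out. The endothelial selectins Sele and Selp did not pass, at 0.0049 and 0.17.

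Cd44 (Entrez gene 12505), a hyaluronan and osteopontin receptor, stood at 5.09, 4.45 and 4.66 on knockouts 1, 3 and 5 and at 3.75, 4.03 and 3.86 on controls 2, 4 and 6. It was the 1 rising marker in which the male array was the highest of each group. For Cd44 the log2 difference came to 0.85 ± 0.11 (SE; adjusted p = 0.00975), and the adjusted p was 0.0507 without control 2. Of 9 other ligands and partners, 2 rose and none fell (median -0.0039), while 4.12% of all genes rose. Mmp14, a membrane protease that can cleave Cd44, rose by 1.27 ± 0.08 and kept its call whichever array was left out. Hmmr, a hyaluronan receptor that also acts on the mitotic spindle, rose by 1.52 ± 0.34 and lost its call without control 2, control 6, knockout 3 or knockout 5. The hyaluronan synthases Has1, Has2 and Has3 and the membrane linkers Ezr, Rdx and Msn did not pass, at differences between -0.09 and 0.12. The osteopontin gene Spp1, the other main ligand, was not analysed here.

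Lgals3 (Entrez gene 16854), galectin-3, a secreted carbohydrate-binding protein of injured epithelium and macrophages, stood at 4.89, 5.47 and 5.59 on knockouts 1, 3 and 5 and at 4.60, 4.21 and 4.68 on the controls. The nearest arrays, knockout 1 and control 6, were 0.21 apart, the smallest gap of the 9 rising markers. The log2 difference was 0.82 ± 0.09 (SE; adjusted p = 0.00644); it kept its call whichever array was left out but not without sex in the model (adjusted p = 0.103). Of the 8 other listed galectins and galectin partners 1 rose and none fell (median 0.13), while 4.12% of all genes rose. The riser was Lgals9, by 0.50 ± 0.11 (adjusted p = 0.0469), a call lost with any single array left out. Lgals1 differed by 0.35 and the galectin-3 binding protein Lgals3bp by 0.68 ± 0.16 (adjusted p = 0.0571), and neither passed.

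**Figure D3:**
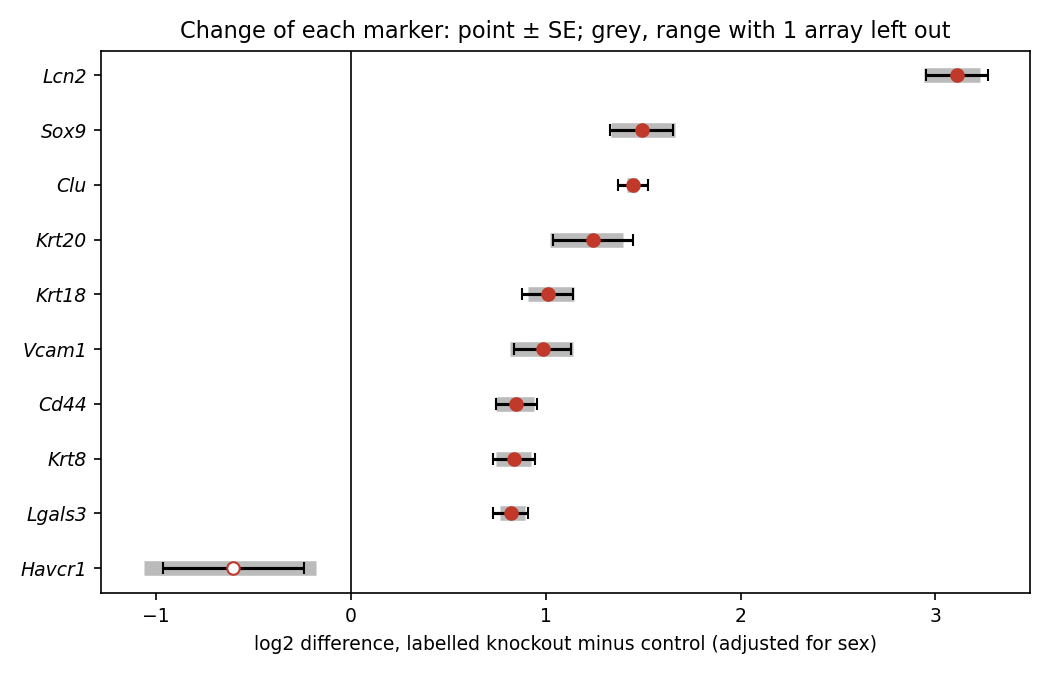
Log2 difference of each marker between arrays labelled knockout and controls, adjusted for sex, as a point with its SE; filled points passed at a limma adjusted p under 0.05, and grey bars span the values with 1 array left out in turn. Lcn2 at 3.11 stands apart, Sox9 to Lgals3 run from 1.49 to 0.82 in small steps, and the open point of Havcr1 has a grey bar from -1.06 to -0.18.

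In order of size, the 9 rises ran from Lcn2 through Sox9, Clu, Krt20, Krt18, Vcam1, Cd44 and Krt8 to Lgals3. Below Lcn2 no rising marker differed from the next by more than 0.23 log2, and the SEs of the single markers were 0.08 to 0.20. Differences between neighbours were not tested, so their order is not established. Lcn2 lay 1.62 above Sox9.

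Each group holds both sexes, so sex could be read from the same fit. For 8 of the 10 the sex term was negative, that is, lower on the male arrays, and in 7 both male arrays were the lowest of their group. Over all genes 54.9% had a negative sex term. Only Lgals3 of the 10 passed for sex, at -0.54 ± 0.09 (SE) for male minus female with an adjusted p of 0.047; 1.87% of all genes passed. The difference between knockouts and controls had the same sign in the females and in the male pair for 9 of 10 markers. For Lcn2 it was 3.23 in the females and 2.86 in the males, and for Sox9 it was 1.47 and 1.54. Havcr1 differed by -1.06 in the females and by 0.32 in the male pair. A genotype by sex term gave Havcr1 a difference of 1.38 ± 0.59 (SE; unadjusted p = 0.0572, adjusted p = 0.726); 0 of the 10 markers passed for that term in limma, 0 had an unadjusted p under 0.05, and 0.00451% of all genes passed.

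**Figure D4:**
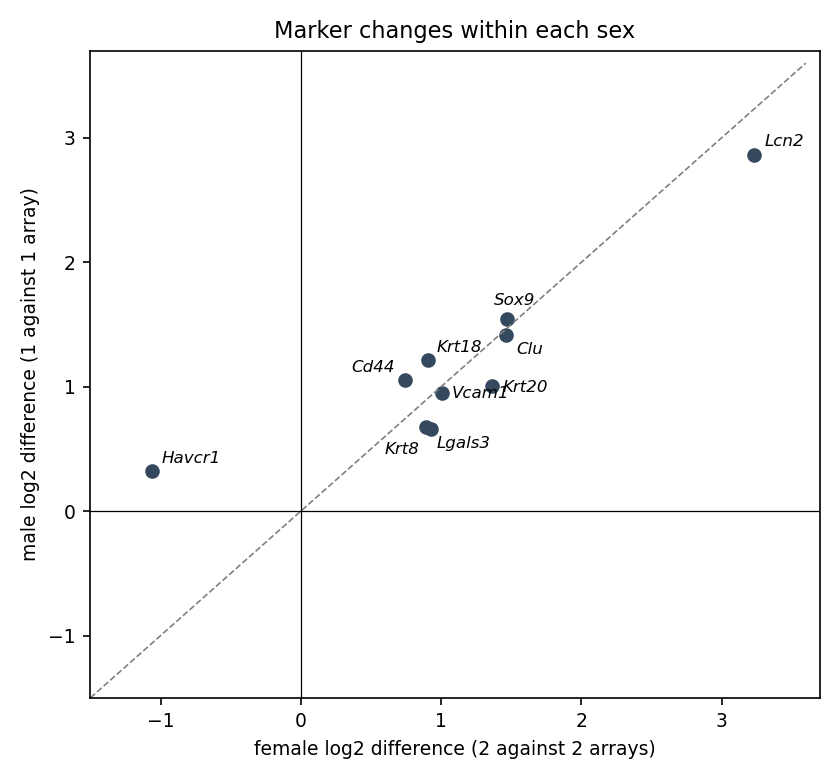
Log2 difference between arrays labelled knockout and controls in females (2 against 2 arrays, horizontal) and males (1 against 1, vertical) for the 10 markers, with a dashed line where both are equal. The 9 rising markers lie near the line from Krt8 and Lgals3 at the lower end to Lcn2 at 3.23 and 2.86, while Havcr1 lies at -1.06 in females and 0.32 in males.

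Several other genes of tubular injury were higher as well. Krt7, Krt19 and Sox4, already counted in the keratin and Sox lists, are counted here again. Beside the members, 6 of 7 genes of a distal injury list rose and none fell (median 0.60), while 4.12% of all genes rose. This list too was chosen with earlier results of these data known, so its share is not independent evidence. Wfdc2 (0.60) did not pass. The groups overlapped for 1 of the risers, Cldn4 (0.84), named after its values were seen. Tnfrsf12a, the receptor of the cytokine TWEAK, rose by 1.77 ± 0.17 (SE), from 5.94, 5.70 and 5.82 on the controls to 6.91, 7.89 and 7.95 on knockouts 1, 3 and 5. It and Krt19 kept their calls whichever array was left out. The phospholipid-binding annexin Anxa1 (0.56) lost its call without control 2, control 6, knockout 3 or knockout 5, as did Krt7. In the proximal injury and failed repair list, 3 of 9 other genes rose and none fell (median 0.44). They were Sox4, the ciliary doublecortin-domain gene Dcdc2a (1.06 ± 0.08; adjusted p = 0.00249) and the monocyte chemokine Ccl2 (0.81 ± 0.12), of which Ccl2 lost its call without control 2 or control 6. Dcdc2a stood at 5.93, 6.18 and 6.14 against 5.0, 4.93 and 5.14, with no overlap between the groups. Cdh6 (0.46), Prom1 (0.44), Sema5a (0.29), Itgb8 (-0.50), Pdgfb (0.03) and Cd24a (0.34) did not pass.

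Genes upstream of several markers in other settings were among those that rose. NF-kappaB and STAT3 drive Lcn2 and Vcam1 transcription in inflammation. Of 15 genes of these pathways 8 rose and none fell (median 0.49), while 4.12% of all genes rose. Their part in the rise of Lcn2 and Vcam1 was not tested. Relb, an NF-kappaB subunit, rose by 0.82 ± 0.09 (SE) and Stat3 by 0.65 ± 0.08, both kept with any single array left out. Nfkbiz, the nuclear cofactor needed for Lcn2 induction, rose by 0.90 ± 0.11 and lost its call without control 6 (adjusted p = 0.0528). The subunit Rel rose by 0.64 ± 0.09 and lost its call without control 2, control 6 or knockout 5. Socs3, a feedback target of STAT3, at 0.34, did not pass (adjusted p = 0.214).

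No listed receptor or relative of Lcn2 and Clu passed as higher. Over all genes 4.12% rose and 3.08% fell. Of 8 receptors and relatives of Lcn2 and Clu, 1 fell and none rose (median -0.20). The fall was in the lipoprotein receptor Vldlr (-0.42 ± 0.08, SE), lost with any single array left out. Lrp2 (megalin), which takes filtered Lcn2 back up in the proximal tubule, differed by -0.34 ± 0.14 (adjusted p = 0.215), and the Lcn2 receptor Slc22a17 by -0.23 ± 0.08 (adjusted p = 0.161). Around Havcr1, 3 of 14 genes of its family and of engulfment rose and none fell (median 0.15): the receptor Axl (0.91 ± 0.11), its ligand Gas6 (0.50 ± 0.08), which binds phosphatidylserine, and the bridging protein Mfge8 (0.48 ± 0.08). Axl kept its call whichever array was left out, Mfge8 lost it with each, and Gas6 lost it in all but 1. The shedding proteases Adam10 and Adam17 differed by 0.04 and 0.09. Timd2, a paralog of Havcr1 named after its values were seen, stood at 6.50 and 7.12 on the male knockout and male control and between 3.55 and 4.14 on the 4 female arrays.

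Cell types that share these markers were checked through their own marker genes. Over all genes 4.12% rose and 3.08% fell. Macrophage and other myeloid genes were higher: 12 of 18 rose and none fell (median 1.12), and the mean log2 value of the list was 5.76, 5.98 and 6.52 on knockouts 1, 3 and 5 against 4.94 to 5.12 on the controls. Cd68, a lysosomal macrophage protein, rose by 1.27 ± 0.11 (SE), and the complement genes C1qa, C1qb and C1qc rose by 1.44, 1.5 and 1.23, of which C1qc lost its call without control 2. The list was highest on knockout 5, as were Krt20, Vcam1 and Lgals3. Lcn2, Clu, Krt8, Krt18 and Sox9 were highest on knockout 3, and Cd44 on knockout 1. Of 11 fibroblast genes 5 were called higher and 0 lower (median 0.56), with list means of 6.57 to 6.87 against 5.71 to 6.27. Col1a1 (1.56 ± 0.10), Col3a1 (1.43 ± 0.11) and Col1a2 (0.94 ± 0.11) kept their calls whichever array was left out, and Dcn (0.70 ± 0.10) lost it without control 2 or control 6. The part of macrophages and fibroblasts in the rise of Vcam1, Cd44 and Lgals3 was not tested.

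No neutrophil, urothelial or endothelial gene of the lists passed. Over all genes 7.2% passed, so lists this short can hold 0 called genes at that share. Neutrophils store Lcn2. Of their genes 0 of 13 neutrophil genes passed in limma (1 had an unadjusted p under 0.05; median 0.03). S100a8, the most abundant neutrophil transcript, lay between 2.34 and 2.47 on all 6 arrays, and 8 of the 13 had group means below 3.32, the 40th percentile of all clusters, in both groups, where a change is hard to measure. The urothelium expresses Krt8, Krt18 and Krt20. Of its own genes 0 of 11 urothelial genes passed in limma (2 had an unadjusted p under 0.05; median -0.03), and the list means of 5.72 to 6.01 on the knockouts lay within the 5.45 to 6.09 of the controls. The umbrella cell uroplakins Upk1a, Upk2 and Upk3a differed by 0.10, -0.05 and 0.04. The part of neutrophils in the rise of Lcn2, and of urothelium in that of the keratins, was not tested. Of 11 endothelial genes 0 passed in limma (1 had an unadjusted p under 0.05; median 0.04). Of 9 lymphocyte genes 1 rose, Cd4 (0.89 ± 0.12), a call lost without control 2 or control 6, with a median of 0.13.

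**Figure D5:**
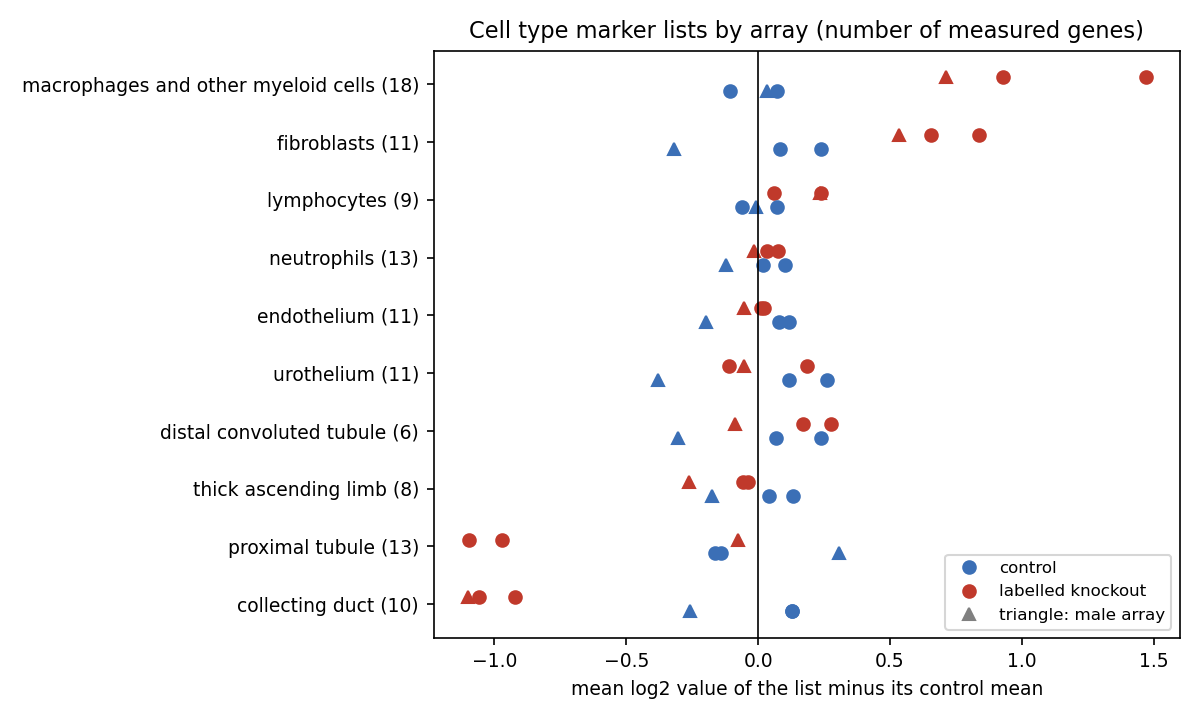
Mean log2 value of each cell type marker list on each array, minus its mean over the controls, with controls in blue, arrays labelled knockout in red and triangles for males; the number of measured genes is in brackets. Macrophage and fibroblast lists lie to the right on all 3 knockout arrays, collecting duct genes lie to the left, and neutrophil, endothelial and urothelial lists overlap between the groups.

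Among the lists of tubule segments, those of the proximal tubule and collecting duct held the most called genes. Over all genes 3.08% fell and 4.12% rose. Of 13 proximal tubule genes 5 fell and none rose (median -0.34), among them Slc5a2 (-2.95 ± 0.26, SE) and the inositol oxygenase Miox (-0.92 ± 0.10), both kept with any single array left out. The amino acid transporter Slc6a19 (-1.85) lost its call without control 2 or control 6, and the lactate transporter Slc5a12 (-1.65) also without knockout 5. The proximal list mean was 10.58, 9.57 and 9.69 on knockouts 1, 3 and 5 and 10.49 to 10.97 on the controls. Knockout 1 lay inside the control range there because of 1 gene, Slc7a13, which was 6.42 higher on the male arrays and was named after its values were seen. Without it, an alternative added after the data were seen, the mean of the other 12 genes was 10.57, 9.98 and 10.17 on knockouts 1, 3 and 5 and 10.97 to 11.02 on the controls, with no overlap. Of 10 collecting duct genes 6 fell and none rose (median -0.99), and those with the smallest p were Fxyd4 (-2.19 ± 0.08), Hsd11b2 (-2.04 ± 0.12), Slc4a1 (-2.58 ± 0.21) and Avpr2 (-1.10 ± 0.12). The thick ascending limb list had 1 fall among 8, the chloride channel subunit Bsnd (-0.79 ± 0.10; median -0.11), lost without control 2 or control 6. The distal convoluted tubule list had 1 rise among 6, the calcium-binding Pvalb (0.52 ± 0.10; median 0.02), which kept its call in 1 of the 6 analyses with an array left out, that without knockout 3. Umod and Egf, thick limb and distal tubule genes that commonly drop in kidney damage, differed by 0.31 (adjusted p = 0.108) and -0.30 (adjusted p = 0.11) and did not pass.

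The genes most like each contrast marker were read from Pearson's r over the 6 arrays, among 1770 other genes whose values spanned at least 1 log2. For Lcn2 they were the complement component C7 (r = 0.997), AU015836 (0.997), Pax8 (0.996), Clu (0.995) and the immediate early gene Fos (0.995). All 5 passed as higher, and these correlations mostly restate the split into groups that all share. Pax8 stood at 10.11, 10.59 and 10.39 on knockouts 1, 3 and 5 and at 9.09, 9.0 and 8.89 on the controls. For Havcr1 they were Gm4450 (r = 0.944), E330013P04Rik (0.929), Map3k7cl (0.919), the histidine-degrading enzyme Amdhd1 (0.910) and the vesicle GTPase Rab6b (0.905). None of these 5 passed between the groups in limma, with adjusted p-values between 0.0827 and 0.708. Amdhd1 (-1.09) and Rab6b (-1.23) were nevertheless lower on every knockout than on any control, as were 10.8% of all genes. For the rest the groups overlapped. Rab6b resembled Havcr1 in its lowest array, at 5.30 on knockout 3 against 6.77 and 5.97 on knockouts 1 and 5 and 6.92 to 7.45 on the controls.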

How the data were processed

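Kidney RNA of 6 mouse samples was hybridised to Affymetrix Mouse Gene 2.1 ST arrays, with biotinylated cDNA made from 400 ng of total RNA. The authors deposited 1 table of processed log2 expression values, 41345 transcript clusters by 6 arrays, which was used as deposited. The submitters' processing notes name RMA, limma and R 3.4.0 without their roles; for filters and genome build, the sources used here state nothing. The log2 scale was checked on the values.

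The platform annotation gave 1 gene symbol to 23521 clusters, several to 1814 and none to 16010. RefSeq (GRCm38.p6) matched 23328 of the 1-symbol clusters by gene identifier and changed no symbol. Of a gene's clusters the one with the highest mean was kept, leaving 22180 genes. Limma 3.58.1 in R 4.3.3 was fitted to all 6 arrays with genotype and sex, with Benjamini-Hochberg adjustment over all genes and a threshold of 0.05 (3 residual and 6.72 total degrees of freedom). The 6 arrays limit the precision. On simulated arrays (20 runs, 22180 genes, 200 changed) the fit recovered 15.0% of changes of 0.5 log2, 87.2% of 1 and 99.6% of 2, with 5.19% false calls.

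The markers and the 20 gene lists (221 of 230 genes measured) were chosen with earlier results of these data known. Named genes are the 10 markers, Pax2 and Pax8, up to 4 called genes per list with the smallest p and the 5 genes most like Lcn2 and Havcr1; list members that did not pass, and genes said to be so, were named after their values were seen.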

Additional observations from a re-analysis of the deposited data

Results flagged for a closer look

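Havcr1 drew attention because its difference ran in opposite directions in the sexes: -1.06 log2 in the females, where both knockouts (6.32 and 7.34) lay below both controls (8.11 and 7.67), and 0.32 in the male pair (7.83 against 7.51). The difference between the sexes was tested with limma's genotype by sex term and did not pass (1.38 ± 0.59, SE; adjusted p = 0.726). It rests on 1 male array per group.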

How the results depend on the processing

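The 10 markers kept their direction in all 15 alternatives (no sex term, females only, each array left out, median centring, quantile normalization, array weights, a trended and robust prior, dim genes removed, clusters averaged, every row tested). The count of rising markers, 9, became 4 without sex in the model and 4 with every row tested, and lay between 4 and 9 with single arrays left out. The count of all genes called, 1596, became 471 without sex, 302 with every row tested, and lay between 344 (without control 2) and 1249 with single arrays left out. It was 356 without control 6, 529 without knockout 5 and 613 without knockout 3. Leaving out either male array gives the same limma fit as females only. The Lcn2 minus Havcr1 change lay between 3.09 and 4.28, and Clu minus Havcr1 between 1.55 and 2.5, with single arrays left out. Median centring moved the share of rises among called genes from 57.2% to 49.4%. No paired analysis was possible because the groups share no replicate number. No array date or batch is given, so none was tested.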
